A study of Homo sapiens with 4 samples.

Results

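The 10 genes described here, SOX2, TP63, MECOM, PIK3CA, PRKCI, ECT2, FXR1, DCUN1D1, SENP2 and ACTL6A, lie on the long arm of chromosome 3, in the segment from 3q26 to 3q28 that is often gained in squamous carcinomas. They were chosen by name as genes of that segment, with no rule on their values, but earlier results of these data were known by then. All 10 were found, each in 1 row, among the 17064 rows of the deposited table. The labels give the cells as KYSE-150, a cell line grown from a squamous carcinoma of the human esophagus. By the same labels the knockdown cells carried a stable short hairpin RNA against NSUN6, an RNA methyltransferase that makes 5-methylcytosine, and the control cells had normal NSUN6 expression. All cells were treated with cycloheximide, which holds ribosomes on their mRNAs, and RNA bound to polyribosomes, collected by spinning the lysate through a sucrose cushion, was sequenced beside input RNA of the same lysate. The 4 libraries were knockdown-labelled polyribosome, knockdown-labelled input, control polyribosome and control input RNA.

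Each group is 1 library, so no difference below could be checked against replicates, and neither p-values nor intervals are given. The labels do not say how many hairpins or clones were used. Values are FPKM, fragment numbers scaled for transcript length and library size, and the read depth behind them is unknown. Differences are of log2(FPKM + 1), a scale on which low genes appear to change less than they do, and a gene was called higher or lower when it differed at least 2-fold on that scale. The table closes with another set of column names, in which the control columns are K150 with a hairpin against GFP. In that set the other 2 columns are K30 with a hairpin against Mettl1, and their input and polyribosome fractions are swapped. The names at the top are those in the sample descriptions and were followed, so those 2 libraries are called knockdown-labelled throughout. If the closing names are right, each difference between knockdown-labelled and control libraries is one between 2 cell lines with other hairpins, and the labels and the table do not settle this. Values with the knockdown-labelled fractions exchanged are given for each of the 10 genes in input and polyribosome RNA, and in efficiency as a range, and for other genes and lists in part.

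Gain of this segment raises the dosage of several cancer genes at once. SOX2 and TP63 encode the transcription factors that set and maintain the basal squamous cell state of the esophagus. PIK3CA, PRKCI and ECT2 encode signalling proteins of growth, cell polarity and cell division, and FXR1, DCUN1D1, SENP2 and ACTL6A act on RNA, on protein modification and on chromatin. Copy number itself was not measured in these libraries.

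The sequences upstream of the SOX2 and TP63 start sites are shown because SOX2 was the gene of the 10 whose input RNA differed most between the cells, and TP63 is the other lineage factor. Each is the 250 bases before the annotated start, from RefSeq on GRCh38.p14, plus strand, at chr3:181711675-181711924 for SOX2 and chr3:189631139-189631388 for TP63. Capitals mark CCAAT boxes (CCAAT or its reverse complement ATTGG) and GC boxes (GGGCGG or CCGCCC).
SOX2: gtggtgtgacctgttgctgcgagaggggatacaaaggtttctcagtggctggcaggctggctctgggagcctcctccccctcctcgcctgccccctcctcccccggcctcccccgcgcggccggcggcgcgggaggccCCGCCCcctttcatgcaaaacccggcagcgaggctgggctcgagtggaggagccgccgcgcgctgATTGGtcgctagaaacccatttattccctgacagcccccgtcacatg
TP63: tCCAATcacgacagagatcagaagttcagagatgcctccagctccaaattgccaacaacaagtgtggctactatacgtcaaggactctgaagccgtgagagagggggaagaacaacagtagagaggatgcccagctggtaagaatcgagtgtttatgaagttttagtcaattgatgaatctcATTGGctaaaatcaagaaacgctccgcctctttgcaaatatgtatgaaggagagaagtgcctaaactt
The SOX2 stretch held 1 CCAAT box and 1 GC box at a GC content of 68.8%. The TP63 stretch held 2 CCAAT boxes and no GC box at 44.0%. A TATA box (TATAAA or TTTATA) was found in neither. Of the 35116 RefSeq promoters of that length, 32% held a CCAAT box, 42.6% a GC box and 10.7% a TATA box, and the median GC content was 58.0%. TP63 has a second start site inside the gene that gives a shorter protein form, and FPKM per gene does not separate the forms.

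NSUN6 is known to methylate cytosine in a CUCCA motif, written CTCCA in DNA letters, so the first such motif with its surroundings is shown for SOX2, which differed most in input, and for TP63 and FXR1, which differed most in translation efficiency. Capitals mark the motif, and the letters are from the longest protein-coding transcript of each gene in GENCODE 29.
SOX2: gcggcggcaaCTCCAccgcggcggc
TP63: cacagcccagCTCCAccttcgatgc
FXR1: gtggcaaatcCTCCAtcagttctgt
These motifs begin at base 509 of 2513 in SOX2, base 548 of 4909 in TP63 and base 1773 of 8711 in FXR1, counted from 1 at the 5′ end. All 10 transcripts held CTCCA at least once, from 2 times in SENP2 to 10 times in PIK3CA, as did 95.2% of the genes that averaged at least 5 FPKM. Per kilobase the 10 genes had a median of 1.33 motifs and all such genes 1.59. A match is a description of the letters, not a methylated site.

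NSUN6 itself had 0.38 FPKM in knockdown-labelled polyribosome RNA against 10.13 FPKM in control polyribosome RNA. In input it had 3.83 FPKM in knockdown-labelled and 8.85 FPKM in control cells. The labelled esophageal epithelium was checked against 8 markers of squamous epithelium, TP63 among them. Their summed level was 640 and 646 FPKM in the knockdown-labelled polyribosome and input libraries, and 2159 and 1715 FPKM in the control ones. KRT5, the basal squamous keratin, was at 0.70 and 0.45 FPKM in the knockdown-labelled libraries, polyribosome then input, against 1162 and 906 FPKM in the control libraries. In input KRT14 (-3.77) and TRIM29 (-1.47) were also called lower, and SFN (-0.36), TP63 (-0.34), DSC3 (-0.47) and DSG3 (-0.65) were short of 2-fold. PERP was higher in knockdown-labelled than in control input, at 159.96 against 44.41 FPKM, and lower on polyribosomes, at 42.2 against 57.73 FPKM. The 8 markers of simple or glandular epithelium summed to 7234 and 6576 FPKM in knockdown-labelled and 4314 and 3225 FPKM in control libraries, with KRT8 and KRT18 high in all 4. KRT19, a simple epithelial keratin, stood at 1973 and 1488 FPKM in knockdown-labelled and 1.02 and 0.07 FPKM in control libraries, and AGR2, of mucus-secreting cells, at 316 and 1093 FPKM against 0.15 and 0.25 FPKM. MUC1 was lower in the knockdown-labelled libraries, at 4.72 and 3.53 FPKM against 11.81 and 12.25 FPKM. Fibroblast and endothelial markers summed to at most 2.99 FPKM in any library. Immune markers, 5 of 6 in the table, summed to 10.2 and 8.53 FPKM in knockdown-labelled and 71.5 and 74.1 FPKM in control libraries. CD68, of lysosomes, was the largest part of that sum in each library, and PTPRC, the marker common to leukocytes, was under 1 FPKM throughout. The part of this difference in epithelial markers in the results below was not tested. In bulk RNA, fewer cells of a type and less RNA per cell cannot be told apart.

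**Figure D1:**
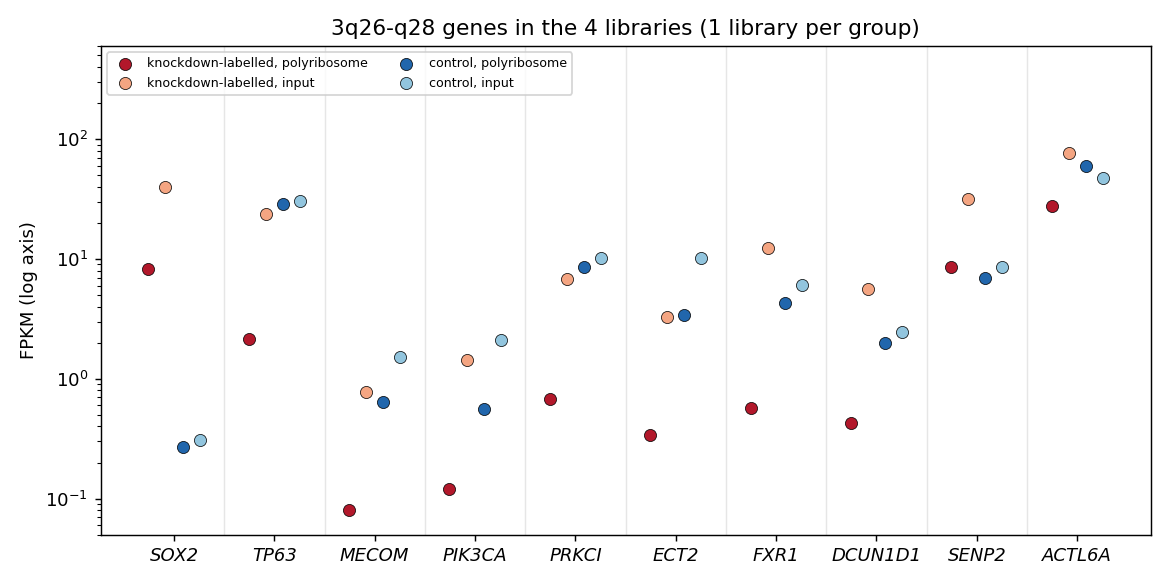
FPKM of the 10 genes (log axis) in the 4 libraries, 1 point per library. SOX2 was under 1 FPKM in both control libraries and at 8.28 and 39.54 FPKM in the knockdown-labelled ones, and each of the other 9 genes except SENP2 had its lowest point in the knockdown-labelled polyribosome library.

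SOX2, which also keeps stem cells undifferentiated, was the gene of the 10 with the largest difference in input. It was at 8.28 FPKM in knockdown-labelled polyribosome RNA, 39.54 FPKM in knockdown-labelled input, 0.27 FPKM in control polyribosome RNA and 0.31 FPKM in control input. Both knockdown-labelled libraries were high and both control libraries near 0, with a log2 difference of 4.95 in input and 2.87 in polyribosome RNA. With the knockdown-labelled fractions exchanged these were 2.82 and 5.00, so SOX2 was higher in either order. The 4.95 stood at the 99.2nd percentile of the 7379 genes that averaged at least 5 FPKM. SOX2 reached that mean only through the knockdown-labelled libraries. The gene lies inside the long non-coding gene SOX2-OT, so its fragments are not certain to be its own. The 3 genes closest to its pattern, by root mean square difference of log2(FPKM + 1) over the 4 libraries, were SGCE (0.17), SH3YL1 (0.31) and TCEAL8 (0.33).

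TP63, the p53-family factor of basal epithelium, differed by fraction. It was at 2.16 FPKM in knockdown-labelled polyribosome RNA, 23.66 FPKM in knockdown-labelled input, 28.77 FPKM in control polyribosome RNA and 30.25 FPKM in control input. Only the knockdown-labelled polyribosome library was low. The input difference was -0.34 and the polyribosome difference -3.24, at the 2.41st percentile of all genes. With the fractions exchanged they were -3.31 and -0.27. In knockdown-labelled input TP63 was at 78.2% of its control level, while KRT5 was near 0 in both knockdown-labelled libraries.

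Around these 2 factors, the list of squamous lineage genes had 21 of 27 members with a mean of at least 5 FPKM. In input 6 of them were called higher and 7 lower, with a median of 0.21. Of all genes with that mean 13.2% were called higher and 14.4% lower in input. In polyribosome RNA 3 were higher and 10 lower, with a median of -0.93. The shares of all genes there were 16.7% and 32.9%, and these shares also stand beside the lists below. After the exchange the medians were -0.76 and -0.21. KRT17, a keratin of activated epithelium, differed by -5.03 in input and -4.70 in polyribosome RNA, and FGFR3, a fibroblast growth factor receptor, by 2.10 and 3.11. Among SOX factors, p53 relatives and genes linked to MECOM, 10 of 13 passed, with 2 higher and 4 lower in input. GATA2, a blood and endothelial transcription factor whose gene lies elsewhere on 3q, was at 17.94 FPKM in knockdown-labelled and 0.45 FPKM in control input, and RUNX1, a core-binding factor, at 2.52 and 27.93 FPKM. SOX9 differed by -1.23 and SOX4 by 1.86 in input, or by -2.57 and 0.16 in the exchanged order.

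MECOM, a zinc finger transcription factor of stem cells and leukaemia, was the lowest of the 10 in both knockdown-labelled libraries. It was at 0.08 FPKM in knockdown-labelled polyribosome RNA, 0.77 FPKM in knockdown-labelled input, 0.64 FPKM in control polyribosome RNA and 1.51 FPKM in control input. PIK3CA, the catalytic subunit of phosphoinositide 3-kinase, was at 0.12, 1.43, 0.56 and 2.12 FPKM in the libraries in that order. Both were low in every library, and in both kinds of cells lower on polyribosomes than in input. Their input differences were -0.50 for MECOM and -0.36 for PIK3CA, short of 2-fold. In the exchanged order both were called lower in input, at -1.22 and -1.48, and their polyribosome differences were 0.11 and 0.64, against -0.60 and -0.48 in the order of the header. Of 11 other genes of the PI3K and AKT pathway, 4 passed the filter on low values, none of them called in input. On polyribosomes the kinase genes AKT2 and AKT1 were called higher, by 1.71 and 1.08, with 72 and 142 FPKM in knockdown-labelled and 21.3 and 66.3 FPKM in control polyribosome RNA. After the exchange these differences were 0.47 and -0.36. PIK3CA overlaps KCNMB3, so its fragments there are uncertain.

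PRKCI, the atypical protein kinase C of epithelial polarity, was at 0.68 FPKM in knockdown-labelled polyribosome RNA, 6.77 FPKM in knockdown-labelled input, 8.49 FPKM in control polyribosome RNA and 10.14 FPKM in control input. As with TP63, 1 library stood low. The polyribosome difference was -2.50 and the input difference -0.52, or -0.29 and -2.73 in the exchanged order. Of its polarity partners 9 of 11 passed, with 1 called higher and 3 lower in input. PARD3, the scaffold of the polarity complex, was at 1.23 FPKM in knockdown-labelled and 11.72 FPKM in control input, and LLGL2, which opposes the complex, at 38.52 and 16.82 FPKM. Both input calls kept their direction in the exchanged order, at -1.55 and 1.75.

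ECT2, an exchange factor that acts at the cleavage furrow of dividing cells, was the gene of the 10 called lower in both fractions. It was at 0.34 FPKM in knockdown-labelled polyribosome RNA, 3.27 FPKM in knockdown-labelled input, 3.39 FPKM in control polyribosome RNA and 10.27 FPKM in control input. The differences were -1.71 in polyribosome RNA and -1.40 in input. With the fractions exchanged they were -0.04 and -3.07, so the polyribosome call rests on the column order. By the same measure as for SOX2, the closest patterns were those of CKAP2 (0.26), a spindle protein, ELL2 (0.34), an elongation factor of transcription, and GNAQ (0.37), a G protein subunit. Of the listed cytokinesis genes 12 of 13 passed, with 7 called lower on polyribosomes, where 32.9% of all genes past the filter were. The 7 included ANLN, a scaffold of the cleavage furrow, at -3.10 and RACGAP1, the partner that recruits ECT2 to the spindle midzone, at -2.39. In input ANLN, at -1.42 or, exchanged, -3.84, was the 1 called lower, and 1 was called higher.

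FXR1, an RNA-binding protein of the fragile X family, was at 0.57 FPKM in knockdown-labelled polyribosome RNA, 12.36 FPKM in knockdown-labelled input, 4.33 FPKM in control polyribosome RNA and 6.11 FPKM in control input. The knockdown-labelled libraries were thus the lowest and the highest of the 4, with differences of -1.76 on polyribosomes and 0.91 in input, or 1.33 and -2.18 in the exchanged order. Of its relatives and partners 6 of 8 passed, and 4 were called lower on polyribosomes, against 32.9% of all genes past the filter. CAPRIN1, a stress granule protein, was at 4.57 FPKM in knockdown-labelled and 55.7 FPKM in control polyribosome RNA, whereas FXR2, the closest relative in the list, was at 33.4 and 53.9 FPKM, a difference of -0.68.

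DCUN1D1, which helps attach NEDD8 to cullins, was at 0.43 FPKM in knockdown-labelled polyribosome RNA, 5.57 FPKM in knockdown-labelled input, 2.00 FPKM in control polyribosome RNA and 2.46 FPKM in control input. It showed the same split as FXR1 at lower levels, with differences of -1.07 and 0.93, or 1.13 and -1.27 in the exchanged order. Of the neddylation genes 12 of 19 passed. On polyribosomes 7 were called lower and none higher, against 32.9% and 16.7% of all genes past the filter. NAE1 and UBA3, the subunits of the enzyme that activates NEDD8, were at -3.19 and -2.65. SENP2, a protease that removes SUMO, was at 8.57 FPKM in knockdown-labelled polyribosome RNA, 31.63 FPKM in knockdown-labelled input, 6.98 FPKM in control polyribosome RNA and 8.58 FPKM in control input. Only the knockdown-labelled input was high, with a difference of 1.77 in input and 0.26 on polyribosomes, or -0.0015 and 2.03 with the fractions exchanged. Of the SUMO pathway 11 of 16 passed. Its relative SENP5 differed by 1.12 and SUMO2 by 1.07 in input, and SUMO3 by -1.08. None of these calls held in the exchanged order, where SENP5 was at -0.93, SUMO2 at -0.08 and SUMO3 at -0.36.

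ACTL6A, an actin-like subunit of the BAF, INO80 and TIP60 chromatin complexes, was the most abundant of the 10 in every library. It was at 27.67 FPKM in knockdown-labelled polyribosome RNA, 76.33 FPKM in knockdown-labelled input, 59.20 FPKM in control polyribosome RNA and 47.17 FPKM in control input. In control cells it was the 1 gene of the 10 at a higher level on polyribosomes than in input, and in knockdown-labelled cells it was lower there. Its differences were 0.68 in input and -1.07 on polyribosomes, or -0.75 and 0.36 in the exchanged order. The gene overlaps MRPL47, and the strand setting of the counting is not given, so fragments of the overlap are uncertain. Of the listed complex subunits 17 of 25 passed. None was called higher on polyribosomes and 8 were called lower, against 16.7% and 32.9% of all genes past the filter. Among the 8 were BRD7 at -2.78 and SMARCE1 at -2.57. In input SS18, at 1.27, was the 1 called, a call that turned to -1.35 in the exchanged order.

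The polyribosome values of these pathways also moved with the column order. The median polyribosome difference was -1.34 for the cytokinesis genes, -1.74 for the fragile X proteins, -1.55 for the neddylation genes and -0.85 for the chromatin complexes, against -0.28 for all genes. In the exchanged order the same medians were -0.31, -0.00065, 0.0015 and -0.13, against -0.01 for all genes. The SUMO list had a median of 0.06, or 0.56 exchanged, and the polarity list 0.41, or -0.28 exchanged. None of the polyribosome calls of ANLN, RACGAP1, CAPRIN1, NAE1, UBA3, BRD7 and SMARCE1 held after the exchange, with UBA3 at 0.35 and SMARCE1 at 0.77.

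Taking input RNA first, the question was which of the 10 differed between knockdown-labelled and control cells before selection for ribosomes. SOX2 and SENP2 were called higher, 2 of 10, where 13.2% of the 7379 genes that averaged at least 5 FPKM were, and 9.46% of all 17064 rows. ECT2 was called lower, 1 of 10, where 14.4% of those genes and 9.84% of all rows were. These shares are near the background. Only 6 of the 10 (SOX2, TP63, PRKCI, FXR1, SENP2 and ACTL6A) reached that mean, and the other 4 are described without it. The median difference of the 10 was 0.17 and that of all genes 0.01. In the exchanged order 1 of the 10 was called higher, where 15.9% of the genes past that mean were, and 7 lower, where 31.8% were.

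In polyribosome RNA, TP63, PRKCI, FXR1, ECT2, ACTL6A and DCUN1D1 were called lower in knockdown-labelled cells, 6 of 10 against 32.9% of the genes past that mean and 22.4% of all rows. SOX2 was called higher, 1 of 10 against 16.7% and 10.3%. The median of all genes was itself -0.28. Relative to it 4 of the 6 stayed past 2-fold, with ACTL6A and DCUN1D1 both at -0.79. Of the 7379 genes past that mean 1989 were lower by at least 2-fold relative to it, against 2426 before. In the exchanged order 0 of 10 were called lower, where 14% of the genes past that mean were. SOX2, SENP2, FXR1 and DCUN1D1 were then called higher, 4 of 10 against 12.7%.

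**Figure D2:**
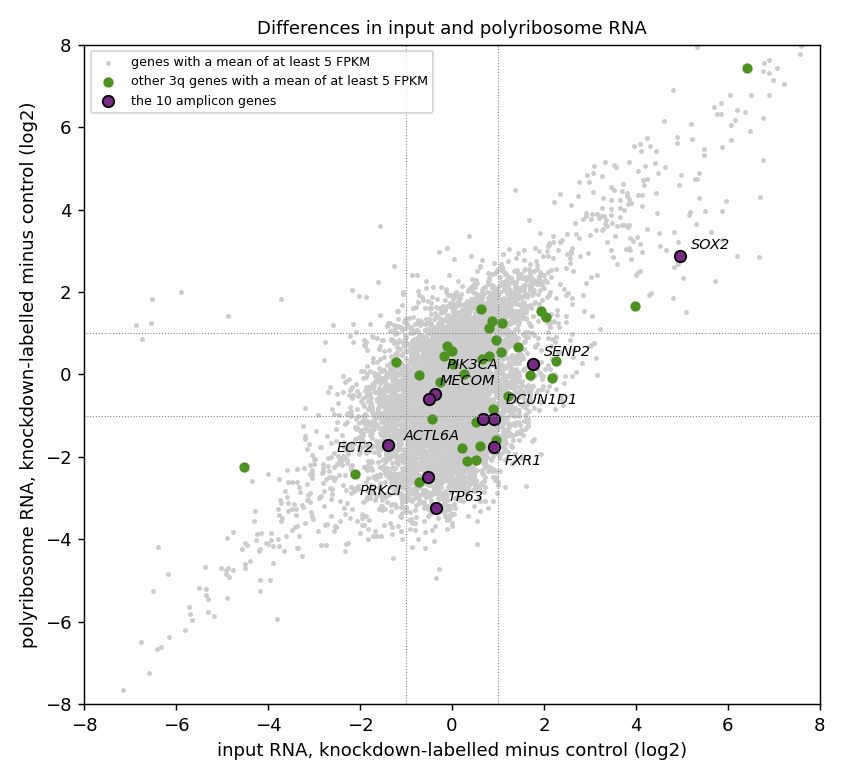
Differences of log2(FPKM + 1), knockdown-labelled minus control, in input (x axis) and polyribosome RNA (y axis), with dotted lines at 2-fold. The axes end at 8 on the log2 scale, and 8 genes beyond them are not drawn. SOX2 lies to the upper right, and TP63, PRKCI and FXR1 lie low on the y axis with input differences inside 2-fold.

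Translation efficiency, here polyribosome FPKM + 1 divided by input FPKM + 1, is the measure the series was designed around. In control cells 9 of the 10 genes were lower on polyribosomes than in input, and ECT2 (-1.36) and PIK3CA (-1) were called lower, 2 of 10 against 0.759% of the genes past that mean and 0.779% of all rows. None was called higher, against 0% and 0.0352%. ACTL6A was at 0.32. ECT2 and PIK3CA are themselves below that mean, and PIK3CA was called exactly at the limit of 2-fold. With 0.1 added to FPKM they were at -1.57 and -1.75, both called. With 5 added they were at -0.86 and -0.36, neither called. As plain percentages, polyribosome FPKM ran from 26.4% of input for PIK3CA to 126% for ACTL6A, with a median of 81.3%. In knockdown-labelled cells all 10 were lower on polyribosomes than in input, and 9, all but MECOM, were called lower, against 28.8% of the genes past that mean and 21.7% of all rows. None was called higher, against 8.62% and 4.15%. FXR1 was lowest at -3.09 and TP63 next at -2.96. Polyribosome FPKM ran from 4.61% of input for FXR1 to 36.3% for ACTL6A, with a median of 10.2%, where the median of all genes was 98.4%. MECOM, at 10.4% of input, had a log2 value of -0.71, since adding 1 FPKM compresses values this low.

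Set against control, 7 of 10 genes were called lower in efficiency in knockdown-labelled cells, against 30.1% of the genes past that mean and 19.6% of all rows. None was called higher, against 12% and 6.18%. The 7 were TP63 (-2.89), FXR1 (-2.67), SOX2 (-2.08), DCUN1D1 (-1.99), PRKCI (-1.98), ACTL6A (-1.75) and SENP2 (-1.51), while ECT2 (-0.31), PIK3CA (-0.12) and MECOM (-0.10) were not called. SOX2 was at only 0.27 and 0.31 FPKM in the control libraries, so its value mostly repeats its knockdown-labelled efficiency of -2.13. The values of ECT2, PIK3CA and MECOM depended on the constant added to FPKM. With 0.1 in place of 1 they were at -1.37, -1.05 and -1.15. All 10 genes were then called lower, as were 2381 of the 7379 genes past that mean. With 5 in place of 1 these 3 were above 0, at 0.23 for ECT2, 0.03 for PIK3CA and 0.02 for MECOM. The median was -1.87 for the 10 and -0.12 for all genes. In the authors' deposited table, where 5 was added to both FPKM, the ratio of TP63 was 0.250 in knockdown and 0.958 in control cells, that of FXR1 0.321 and 0.840, and that of ECT2 0.646 and 0.549. Exchanging the fractions, all 10 were called higher in efficiency, where 27.8% of the genes past that mean were called higher and 6.29% lower. The values then ran from 1.11 for ACTL6A to 3.50 for FXR1, so the direction of each of the 7 calls rests on the header's column order.

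**Figure D3:**
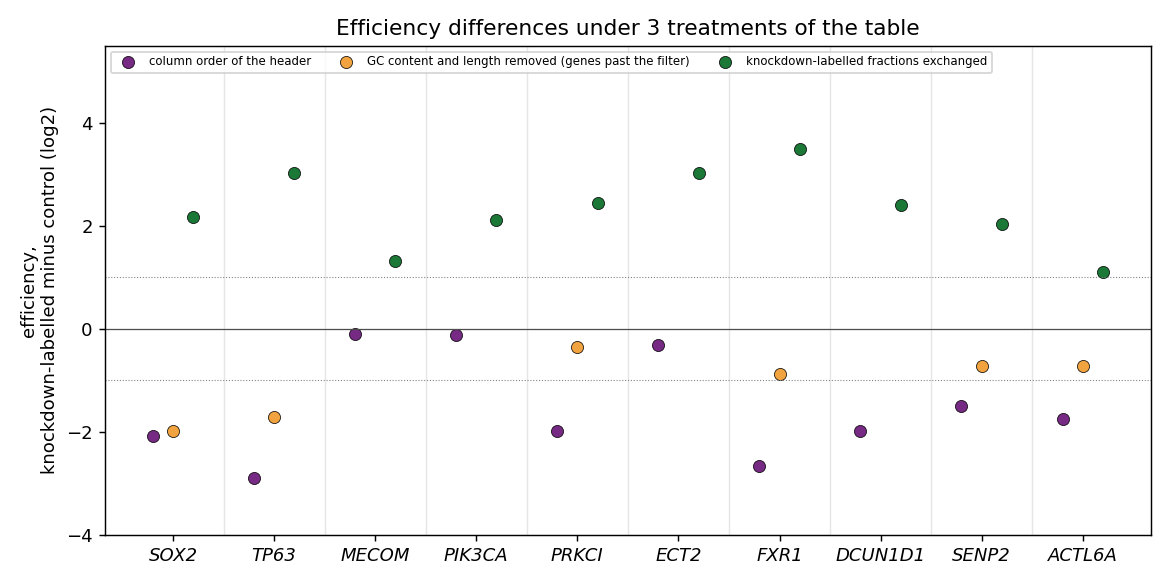
Difference of log2 translation efficiency, knockdown-labelled minus control, for the 10 genes with the header's column order, with GC content and length removed (the 6 genes past the filter), and with the knockdown-labelled fractions exchanged. Dotted lines mark 2-fold. The first set lies between -2.89 and -0.10 and the exchanged set between 1.11 and 3.50.

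Most of the 10 genes have long, GC-poor transcripts, a property their choice did not use. The longest protein-coding transcript had a median length of 5334 bases and a median GC content of 40.8% among them, against 2818 bases and 52.2% for the genes that averaged at least 5 FPKM. DCUN1D1 (33.9% GC, 7954 bases) and PIK3CA (34.8%, 9093 bases) were the most GC-poor, and SOX2 (50.7%, 2513 bases) the least. All but SOX2, 9 of the 10, fell in the low class when those genes were divided into 3 equal classes by GC content, under 47.4%. Among the genes of the low class the median efficiency difference was -1.65 and 73.2% of genes were called lower, beside 6 of the 9 amplicon genes in that class. The middle class had a median of -0.16 and the high class 0.61. The share in polyribosome RNA was alike, 68% called lower in the low class, and within knockdown-labelled cells it was 72.3%. In control cells the same class had a median log2 efficiency of 0.01.

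With the trend on GC content and length removed, TP63 remained lower in efficiency at -1.71 and SOX2 at -1.98. For SOX2 this rests on the knockdown-labelled libraries, since its control levels were 0.27 and 0.31 FPKM. FXR1 was then at -0.88, SENP2 at -0.73, ACTL6A at -0.72 and PRKCI at -0.34, none of them called. On polyribosomes TP63 was then at -2.16 and SOX2 at 2.92, both called, and PRKCI, ACTL6A, FXR1 and SENP2 were not. There 1945 of the genes past the filter were called lower and 757 higher, with a median of -0.38. The trend was fitted on the genes past the filter, and for the 4 genes below it, ECT2, DCUN1D1, MECOM and PIK3CA, its removal gives no usable value. NLGN1, another gene of the segment listed at 0 in all 4 libraries, received an efficiency difference of 2.15 from that removal alone. The input differences moved little, SOX2 to 4.90, SENP2 to 1.71 and ECT2 to -1.56.

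**Figure D4:**
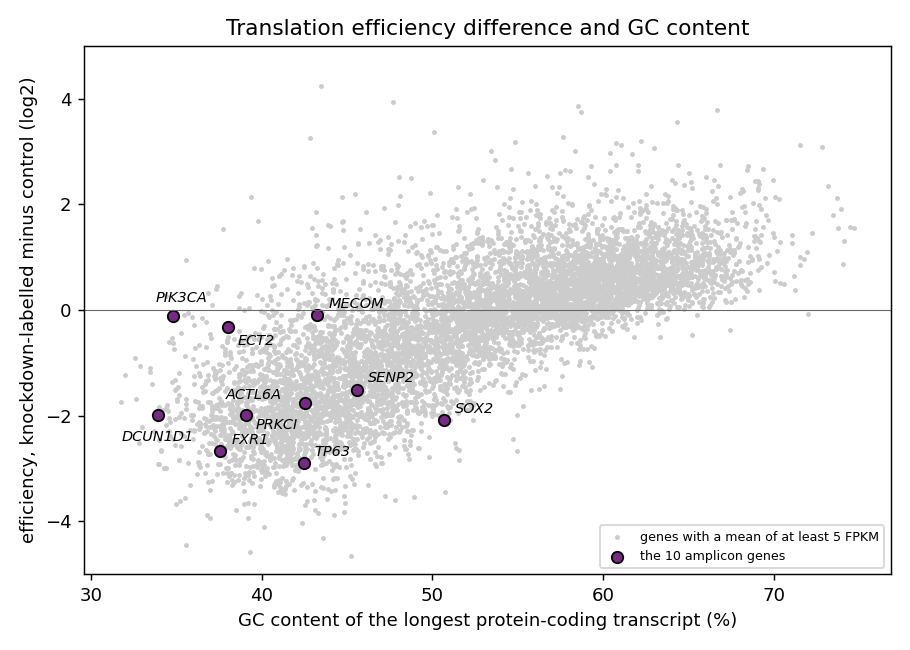
Difference of log2 translation efficiency, knockdown-labelled minus control, against the GC content of the longest protein-coding transcript in percent, for the genes that averaged at least 5 FPKM and the 10 amplicon genes. The y axis ends at 5 on the log2 scale, and 6 genes beyond it are not drawn. SOX2 lies at 50.7% GC and -2.08, in the middle class of GC content, where 16.9% of genes were called lower. Its control levels were 0.27 and 0.31 FPKM, so its place rests on the knockdown-labelled libraries.

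The same segment holds other genes, so the values of the 10 were set beside those of the 94 other genes that lie between MECOM and TP63 in the RefSeq gene order and are in the table. Of these, 37 had a mean of at least 5 FPKM. In input 11 of the 37 were called higher and 3 lower, with a median of 0.66, and in the exchanged order 9 higher and 9 lower, with a median of 0.13. Of all genes past that mean 13.2% were called higher and 14.4% lower, or 15.9% and 31.8% in the exchanged order. RPL39L, a ribosomal protein paralogue, had 84.5 FPKM in knockdown-labelled input and was listed at 0 in the 2 control libraries. In the header's order LAMP3, a lysosomal membrane protein, was at 35.9 FPKM in knockdown-labelled and 1.34 FPKM in control input. Like SOX2, some of the 11 called higher, RPL39L and LAMP3 among them, reached a mean of 5 FPKM only through the knockdown-labelled libraries. Their higher calls thus follow in part from the filter. CAMK2N2, an inhibitor of a calmodulin-dependent kinase, was at 3.26 FPKM in knockdown-labelled and 97.4 FPKM in control input. In the header's order the input values along the segment did not run one way, since MECOM, PRKCI, ECT2 and PIK3CA at one end were below 0, ACTL6A, FXR1, SOX2, DCUN1D1 and SENP2 in the middle were above 0, and TP63 at the other end was below 0. After the exchange SOX2 alone of the 10 was above 0.

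In efficiency, 14 of the 37 other genes were called lower and 3 higher, with a median of -0.40. In the exchanged order 2 were called lower and 14 higher, with a median of 0.33. MFN1, a mitochondrial fusion protein, was at -2.61, IGF2BP2, an mRNA-binding protein, at -2.55 and MRPL47, of the mitochondrial ribosome, at -2.42. CAMK2N2 was at 2.27 and FAM131A at 1.52. RPL39L, also called higher at 1.01, was listed at 0 in both control libraries. Of the 15 in the low class of GC content 10 were called lower and 0 higher, with a median of -1.73. In that class 73.2% of all genes were called lower. Of the other 22 of the 37, 4 were called lower and 3 higher, with a median of 0.01.

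**Figure D5:**
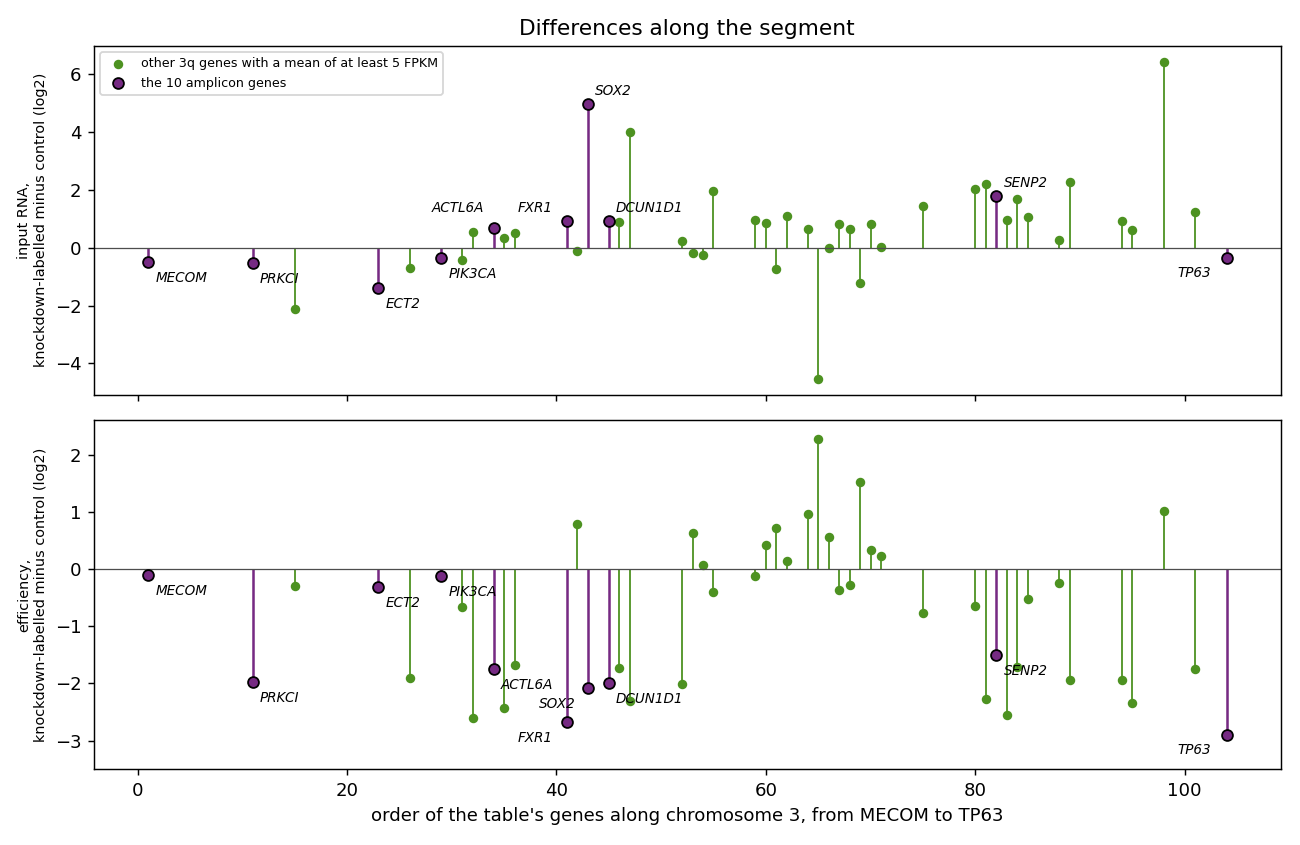
Differences of the 10 amplicon genes and of the 37 other genes that averaged at least 5 FPKM, in the order of the table's 104 genes along chromosome 3 from MECOM to TP63, with input RNA above and translation efficiency below (both knockdown-labelled minus control, log2). SOX2 at 4.95 and RPL39L at 6.42 stand highest in input, and TP63 at -2.89 is lowest in efficiency.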

How the data were processed

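Input and polyribosome RNA of knockdown-labelled and control cells were sequenced, 1 library per group. Per the labels' protocols the library kit kept the strand. The authors deposited FPKM per gene symbol for the 4 libraries, and a translation efficiency ratio, which the values show to be polyribosome over input FPKM with 5 added to both (largest gap 5e-10). TopHat and the builds hg19 and GRCh37 are named in the submitters' processing notes. For the counting tool, its strand setting and the annotation, the answer is not given in the sources used here. Titles gave each sample's group, and each column was matched to a sample description by name.

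From the deposited FPKM, differences of log2(FPKM + 1) were computed with Python 3.11.15, numpy 2.4.6 and pandas 2.3.3. The background was the 7379 of 17064 rows whose average over the 4 libraries reached 5 FPKM, with all rows beside it. Of all rows 28 carry no gene name. No test was possible. Values are rounded, with 0.01 FPKM the smallest above 0, so whole reads could not be recovered. The genes above 0 numbered 14645 to 15081 per library, and the FPKM summed to between 538002 and 627887. Length and GC content came from the longest protein-coding transcript in GENCODE 29, matched for 99.5% of these genes, and a quadratic trend was fitted across genes and removed with the mean kept. Gene order came from RefSeq on GRCh38.p14, matched by symbol or unambiguous synonym for 16935 rows. Its coordinates are given for the printed promoters alone. The difference and trend steps were tested on simulated data.

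The 10 genes and the 9 pathway lists were chosen with earlier results of these data known. Named genes are the 10, NSUN6, the 3 highest and 3 lowest other 3q genes and the 2 highest and 2 lowest of each list in each comparison, the 3 nearest patterns, and the markers. PTPRC and CD68 belong to the markers. Alternatives were an added constant of 0.1, filters at a mean of 1 FPKM and none, centring on the median of all genes, removal of GC content and length, exchange of the knockdown-labelled fractions and, chosen after seeing the data, an added constant of 5.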

Additional observations from a re-analysis of the deposited data

Results flagged for a closer look

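FXR1, DCUN1D1 and ACTL6A differed in opposite directions in the 2 fractions, higher in knockdown-labelled than in control input and lower on polyribosomes. The input differences, 0.91, 0.93 and 0.68 in that order, were all short of 2-fold. In the exchanged order both directions turned, to -2.18, -1.27 and -0.75 in input and 1.33, 1.13 and 0.36 on polyribosomes. Their transcripts fall in the low class of GC content, where 73.2% of genes were called lower in efficiency. How many of all genes differ in opposite directions was not counted. The polyribosome difference minus the input difference was -2.67 for FXR1, -1.99 for DCUN1D1 and -1.75 for ACTL6A. With 1 library per group the difference between the fractions was not tested.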

How the results depend on the processing

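No paired analysis was possible because each group has 1 library. Depth is unknown and nothing here is replicated. SOX2 kept its calls in input and polyribosome RNA under every alternative run. Counts below are of genes at least 2-fold higher or lower, and the cause of each shift was not tested.

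With 0.1 added to FPKM, 4 of the 10 genes were higher in input, and 13 of all genes were higher in efficiency in control cells. In the efficiency difference all 10 were then lower, as were 2381 of all genes. With 5 added, 0 of the 10 and 758 of all genes were lower in input. On polyribosomes 2 of the 10 and 1784 of all genes were lower, and in control efficiency 0 of the 10 and 30 of all genes. At a mean of at least 1 FPKM, 3756 of all genes were lower on polyribosomes, 3581 lower in knockdown-labelled efficiency, and 3 higher and 128 lower in control efficiency. Without a filter, 1615 were higher and 1679 lower in input, 3818 lower on polyribosomes, 3695 lower in knockdown-labelled efficiency, 6 higher and 133 lower in control efficiency, and 3344 lower in the efficiency difference. The larger counts without a filter come from more genes tested.

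With GC content and length removed, 3 of the 10 were higher and 1 lower on polyribosomes, 1 lower in control efficiency, 1 higher and 3 lower in knockdown-labelled efficiency, and 2 higher and 2 lower in the efficiency difference. Of all genes, 757 were higher and 1945 lower on polyribosomes, and 45 lower in control efficiency. In knockdown-labelled efficiency 245 were higher and 1079 lower, and in the efficiency difference 398 were higher and 1311 lower. On polyribosomes FXR1 turned to 0.00088 and DCUN1D1 to 1.19. In knockdown-labelled efficiency PIK3CA turned to 1.42, ECT2 to 0.26 and DCUN1D1 to 0.50, and in the efficiency difference DCUN1D1 turned to 0.35. PIK3CA, ECT2, MECOM and DCUN1D1 are below the filter on which the trend was fitted, so their values under this alternative are not read as a rise. The higher calls among the 10 other than SOX2 are all of these genes.

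With the fractions exchanged, 1 of the 10 was higher and 7 lower in input, 4 higher and 0 lower on polyribosomes, 9 higher and 0 lower in knockdown-labelled efficiency, and 10 higher and 0 lower in the efficiency difference. Of all genes, 1171 were higher and 2343 lower in input, and 936 higher and 1031 lower on polyribosomes. In knockdown-labelled efficiency 2128 were higher and 636 lower, and in the efficiency difference 2049 were higher and 464 lower. SENP2 turned to -0.0015 in input, and on polyribosomes FXR1 turned to 1.33, DCUN1D1 to 1.13 and ACTL6A to 0.36. Knockdown-labelled efficiency turned to 2.13 for SOX2, 2.96 for TP63, 1.12 for PIK3CA, 2.21 for PRKCI, 1.67 for ECT2, 3.09 for FXR1, 2.20 for DCUN1D1, 1.43 for ACTL6A and 1.77 for SENP2. The efficiency difference turned to 2.17 for SOX2, 3.03 for TP63, 2.44 for PRKCI, 3.50 for FXR1, 2.41 for DCUN1D1, 1.11 for ACTL6A and 2.03 for SENP2.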
